A study of Mus musculus with 6 samples.

Results

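Hypothalamic neuropeptide precursors and anterior pituitary hormones were examined in long RNA from whole mouse brain. The 10 genes, taken by symbol from GENCODE M21, are Oxt, Avp, Trh, Hcrt, Pmch, Pomc, Agrp, Cartpt, Gh and Prl, out of 55450 genes in each count table. Brains came from animals with a knockout of TRMT1L, a relative of the tRNA methyltransferase TRMT1 (KO, 3 libraries), and from wild-type animals (WT, 3 libraries). The labels give no sex, age, strain, litter, dissection border or allele, and describe the libraries as biological triplicates, so p-values measure the spread between these 6 libraries. The comparison asks how loss of TRMT1L alters these transcripts. Of the 10 genes, 9 had at least 1 count in some library and 7 passed the filter on low counts. Agrp, Gh and Prl did not pass and are given as values. Values listed by library follow libraries 1, 2 and 3 of each genotype in that order.

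Hypothalamic peptide neurons are few in number and sit in small nuclei, and their precursors are cut by proprotein convertases into short secreted hormones or transmitters. Oxytocin and vasopressin are released into the blood from the posterior pituitary, thyrotropin-releasing hormone drives the thyroid axis, and the others act mostly inside the brain on arousal, feeding and energy use. Growth hormone and prolactin are made by the anterior pituitary, a gland that is joined to the hypothalamus by a thin stalk and is not part of the brain proper. In RNA from whole brain, fewer cells of a type and less RNA per cell cannot be told apart.

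Counts in genes ranged from 31201119 to 36145961 per library. Trmt1l was at 34.4 ± 1.26 CPM (SD, n = 3) in WT and 2.87 ± 0.171 CPM in KO, where CPM sets a count against the TMM-scaled total of its library, on the side each label implies. General brain markers such as Snap25 and Mbp were present in every library, and none of the 9 on that list was at 0. Among 21237 genes tested, 2 had an adjusted p-value under 0.05 (quasi-likelihood test in edgeR, adjusted by Benjamini and Hochberg over all genes tested), which is 0.00942%.

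None of the 7 peptide genes tested passed that threshold. Their smallest edgeR adjusted p-value was 0.719, for Oxt. Without adjustment, 0 of the 7 had a p-value under 0.05 in edgeR, where 7.92% of all tested genes did, and limma-voom also called 0. The KO and WT ranges overlapped for all 7, while they did not overlap for 14.4% of all tested genes (6.97% with KO lower). Of the 7, 4 had a log2 fold change above 0 and 3 below 0, with a median of 0.02, against a median of 0.00013 over all genes tested. Oxt, Avp, Hcrt and Pomc had mean counts under 50 per library, which limits what could be seen for them. In counts simulated for this comparison over 21237 genes, the test recovered 69% of changed genes between 0.5 and 10 CPM at a log2 change of 1, and 11% at 0.5. These shares cover the whole band and not genes as variable as these. The median SD of log2 CPM within groups was 0.48 for the 7 genes, against 0.12 over all genes tested. Recovery at that spread was not measured apart. Of the calls made in these simulations, 15 of 102 at a log2 change of 0.5, 11 of 167 at 1 and 22 of 213 at 2 were genes that had not been changed, a larger share than the threshold of 0.05 allows for.

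**Figure D1:**
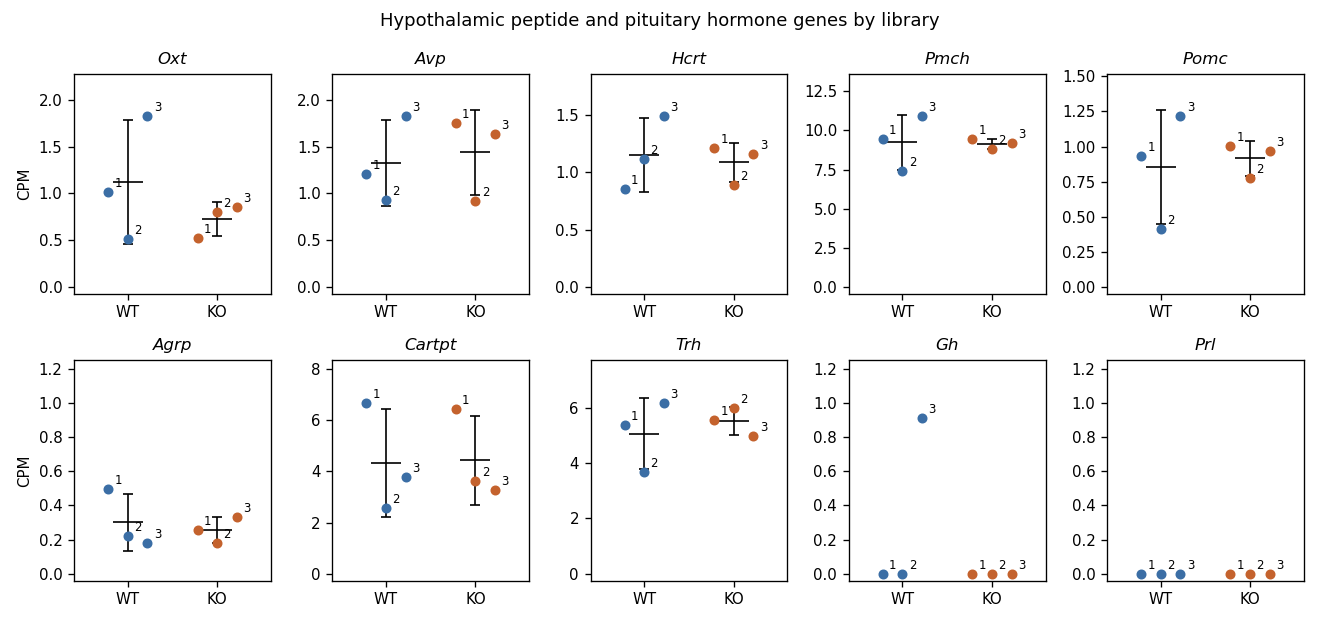
CPM of each of the 10 genes (vertical axis, linear, a separate scale for each gene) in WT (blue) and KO (orange) libraries, numbered 1 to 3; bars show the mean and SD of a group and are left out where a library is at 0. WT library 2 is the lowest point for Oxt, Pmch, Pomc, Cartpt and Trh, and Gh has counts in WT library 3 and in no other.

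Oxytocin and vasopressin are encoded by neighbouring genes with a common ancestor. Oxt (ENSMUSG00000027301.7) occupies bases 130576173 to 130577054 of chromosome 2 in GRCm38, read from the plus strand, and Avp (ENSMUSG00000037727.6) bases 130580620 to 130582554, read from the minus strand. Their 3′ ends face each other across 3565 bases. The codons of the secreted nonapeptides show how close the 2 hormones are. They lie in exon 1 of each gene, at chr2:130576267-130576293 on the plus strand for Oxt and chr2:130582446-130582472 on the minus strand for Avp. Capitals mark the bases that differ.
Oxt: tgctacAtccagaactgcccCCTGggc
Avp: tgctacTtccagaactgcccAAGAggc
The stretches share 22 of 27 bases. Counted from 1 at the 5′ end, with the Oxt base first, the differences are A7T, C21A, C22A, T23G and G24A.

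Oxt had WT counts of 37, 16 and 60 and KO counts of 18, 27 and 31. On the CPM scale these were 1.02, 0.510 and 1.82 in WT and 0.518, 0.802 and 0.858 in KO. WT libraries 2 and 3 were the lowest and the highest of all 6, so the WT values enclosed every KO value. The WT mean was 1.12 ± 0.662 CPM and the KO mean 0.726 ± 0.182 CPM (SD, n = 3). The log2 fold change of Oxt, KO over WT, was -0.62 (SE 0.387, 95% interval -1.47 to 0.22; edgeR adjusted p = 0.719). Its size rested on single libraries. Without WT library 3 it was -0.09, and without WT library 2 it was -0.95 (unadjusted p = 0.0142, edgeR adjusted p = 0.861).

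Avp had WT counts of 44, 29 and 60 and KO counts of 61, 31 and 59. The corresponding levels were 1.21, 0.925 and 1.82 CPM in WT and 1.76, 0.921 and 1.63 CPM in KO. KO library 2 and WT library 2 were both low and nearly equal, and the groups overlapped throughout. The log2 fold change of Avp was 0.12 (SE 0.286, 95% interval -0.50 to 0.75; edgeR adjusted p = 0.939).

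The balance of the neighbouring genes was followed as a share of counts. Oxt made up 45.7%, 35.6% and 50% of the summed Oxt and Avp counts in WT. In KO the shares were 22.8%, 46.6% and 34.4%. The lowest share, in KO library 1, had an exact Clopper-Pearson 95% interval of 14.1% to 33.6%, and the highest, in WT library 3, one of 40.7% to 59.3%. These intervals cover counting error only and not the spread between animals. The mean share was 43.7% ± 7.41 in WT and 34.6% ± 11.9 in KO (SD, n = 3; exact permutation test, two-sided, p = 0.3, where 0.1 is the smallest value 3 against 3 libraries can give).

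The promoters of these neighbouring genes are shown side by side, from RefSeq on GRCm38.p6, 250 bases before to 50 after the start. Capitals mark TGACCT on either strand, the half-site of many nuclear receptors. The windows are chr2:130575919-130576218 (plus strand) for Oxt and chr2:130582539-130582838 (minus strand) for Avp.
Oxt: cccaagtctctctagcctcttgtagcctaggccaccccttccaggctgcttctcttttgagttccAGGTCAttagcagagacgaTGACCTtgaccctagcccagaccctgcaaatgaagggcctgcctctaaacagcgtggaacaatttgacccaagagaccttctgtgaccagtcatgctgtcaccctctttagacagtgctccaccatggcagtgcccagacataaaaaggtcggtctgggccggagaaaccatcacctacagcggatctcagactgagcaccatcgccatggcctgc
Avp: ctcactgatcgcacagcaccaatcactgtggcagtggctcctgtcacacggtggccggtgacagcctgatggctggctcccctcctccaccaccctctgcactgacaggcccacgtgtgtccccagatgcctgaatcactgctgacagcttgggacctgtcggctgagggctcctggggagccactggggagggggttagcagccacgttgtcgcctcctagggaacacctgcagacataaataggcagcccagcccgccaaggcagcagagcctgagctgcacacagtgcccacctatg
The Oxt window held 2 matches, starting 185 and 166 bases before the start of the gene, and the Avp window held 0. Of 32851 promoter windows of this length, 16.3% held at least 1. A match is a run of letters and not a site of binding. The set of RefSeq promoters used here held entries for 8 of the 10 genes, all but Agrp and Gh.

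Thyrotropin-releasing hormone is a tripeptide cut many times over from 1 precursor. The precursor of Trh (ENSMUSG00000005892.4, chromosome 6 from 92242061 to 92244650, minus strand) holds 5 copies of the unit that yields it, all in exon 3. They are shown with the codons of the tripeptide in capitals, between the pairs of basic codons at which the precursor is cut. The first lies at chr6:92243088-92243111 and the last at chr6:92242710-92242733, and 4 different codings of the tripeptide occur among them.
Trh unit 1: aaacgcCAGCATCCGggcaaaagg
Trh unit 2: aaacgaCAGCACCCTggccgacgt
Trh unit 3: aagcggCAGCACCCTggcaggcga
Trh unit 4: aagaggCAGCATCCAggccggagg
Trh unit 5: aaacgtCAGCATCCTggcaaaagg

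Trh had WT counts of 195, 115 and 203 and KO counts of 193, 202 and 180. Levels were 5.36, 3.67 and 6.17 CPM in WT and 5.55, 6.0 and 4.98 CPM in KO. WT library 2 was below all others, and the remaining 5 lay close together. The log2 fold change of Trh was 0.12 (SE 0.169, 95% interval -0.25 to 0.49; edgeR adjusted p = 0.885). The bounds of that interval correspond to 0.840-fold and 1.40-fold of the WT level.

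The lateral hypothalamus holds the neurons that make the orexins, from Hcrt, which sustain wakefulness, and melanin-concentrating hormone, from Pmch, which promotes feeding and sleep. Hcrt (ENSMUSG00000045471.4, chromosome 11 from 100761069 to 100762931, minus strand) had WT counts of 31, 35 and 49 and KO counts of 42, 30 and 42. Its levels ran from 0.852 CPM in WT library 1 to 1.49 CPM in WT library 3. Every KO library fell between these values, and WT library 2, at 1.12 CPM, was near the middle. The log2 fold change of Hcrt was -0.08 (SE 0.243, 95% interval -0.61 to 0.46; edgeR adjusted p = 0.960).

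Pmch (ENSMUSG00000035383.7, chromosome 10 from 88091072 to 88092375, plus strand) was the most abundant of the 10 genes. It had WT counts of 344, 232 and 359 and KO counts of 328, 296 and 333. The KO libraries, at 9.44, 8.79 and 9.21 CPM, lay between WT library 2 at 7.40 and WT library 3 at 10.9 CPM. The WT mean was 9.25 ± 1.76 CPM and the KO mean 9.15 ± 0.328 CPM (SD, n = 3). The difference was -0.02 on the log2 scale (SE 0.128; edgeR adjusted p = 0.985), and Pmch had the narrowest interval of the 7 genes, from 0.814-fold to 1.2-fold of the WT level.

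**Figure D2:**
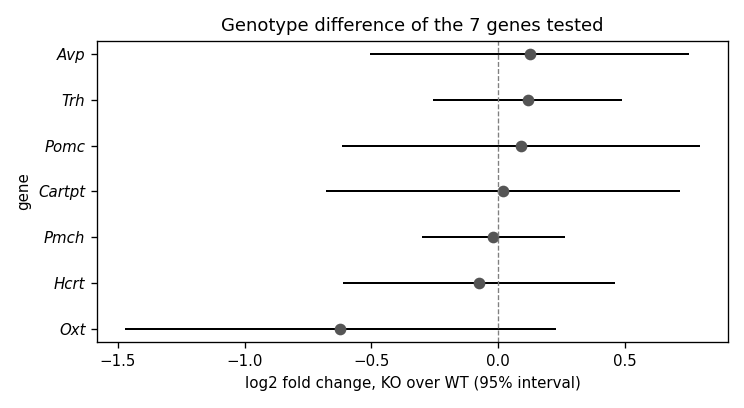
Log2 fold change, KO over WT, of the 7 genes that passed the filter on low counts (points) with 95% intervals from the edgeR fit (lines). Every interval crosses 0; that of Oxt is the widest, from -1.47 to 0.22, and that of Pmch the narrowest.

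The arcuate nucleus holds 2 opposed feeding circuits. Pomc yields the melanocortins, which reduce feeding, and beta-endorphin, while Agrp blocks melanocortin receptors and drives feeding. Pomc is also made in the pituitary, so its source in these libraries cannot be told apart by its count. Pomc (ENSMUSG00000020660.6, chromosome 12 from 3954951 to 3960642, plus strand) had WT counts of 34, 13 and 40 and KO counts of 35, 26 and 35. WT library 2, at 0.415 CPM, was well below the other 5, which ran from 0.772 to 1.22 CPM. The log2 fold change of Pomc was 0.09 (SE 0.321, 95% interval -0.61 to 0.79; edgeR adjusted p = 0.963).

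Agrp (ENSMUSG00000005705.10, chromosome 8 from 105566698 to 105637393, minus strand) was too scarce to be tested. It had WT counts of 18, 7 and 6 and KO counts of 9, 6 and 12. WT library 1 was the highest, at 0.495 CPM, and the rest lay between 0.178 and 0.332 CPM. When no filter on low counts was applied, its log2 fold change was -0.24 (edgeR adjusted p = 0.928).

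Cartpt (ENSMUSG00000021647.7, chromosome 13 from 99898489 to 99901091, minus strand) encodes the CART peptides, made in the arcuate nucleus and in many other parts of the brain. It had WT counts of 243, 81 and 124 and KO counts of 224, 122 and 118. WT library 1 and KO library 1, at 6.68 and 6.45 CPM, stood above the other 4, which ran from 2.58 to 3.77 CPM. Each genotype thus held 1 high library, and the log2 fold change of Cartpt was 0.02 (SE 0.318, 95% interval -0.67 to 0.72; edgeR adjusted p = 0.991). Without WT library 1 it was 0.48, and without KO library 1 it was -0.35, neither past the threshold.

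The pituitary hormones were all but missing from these libraries. Prl (ENSMUSG00000021342.14, chromosome 13 from 27057570 to 27065205, plus strand) had 0 counts in all 6 libraries, which allows up to 3 counts, or between 0.0824 and 0.0957 CPM, in each. Gh (ENSMUSG00000020713.6, chromosome 11 from 106300271 to 106301865, minus strand) had 30 counts in WT library 3 and 0 in the other 5. Those 30 counts (exact Poisson 95% interval 20.2 to 42.8, counting error only) correspond to 0.912 CPM. Set against a floor of 3 counts per library, that level was at least 9.53-fold higher than in any other library. When no filter was applied, Gh had a log2 fold change of -6.38 and passed the threshold (edgeR adjusted p = 4.09e-06), a call made entirely by WT library 3. DESeq2 gave Gh an unadjusted p-value of 0.135 and no adjusted one.

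Other pituitary genes were measured beside Gh. The 16 on the list are hormone subunits such as Cga, Tshb, Lhb and Fshb, transcription factors such as Pou1f1 and Tbx19, and receptors for releasing hormones. Their summed level ran from 3.09 to 4.31 CPM in WT and from 2.63 to 4.95 CPM in KO, and it was not highest in WT library 3, at 3.74 CPM. Pax7, which is also expressed in midbrain neurons, had the highest CPM on the list, at 1.13 to 1.96 CPM. In WT library 3, Cga had 6 counts, Tshb 5, Lhb 7, Fshb 2 and Ghrhr 1, and Pou1f1, the factor that switches on Gh and Prl, had 0. In the other libraries Cga had 0 to 3 counts, Tshb 1 to 6, Lhb 4 to 9, Fshb 0 and Ghrhr 0 to 1. Cga and Fshb were thus highest in WT library 3, while Lhb was highest in KO library 1 and Tshb in KO library 2. The share of stranded reads on the opposite strand was 96.8% for Tshb, 83.0% for Lhb, 60% for Fshb and 0% for Cga. The part of wrong-strand reads in these small counts was not tested. Gnrhr was at 0 everywhere. The part of pituitary tissue in the Gh counts of WT library 3 was not tested.

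To rank the genes against each other, levels were divided by the length of the annotated exons. On the scale of CPM per kb, Pmch led with a mean of 12.3 over the 6 libraries, and its lowest library lay above the highest of every other gene on the list. Trh followed at 3.82, Cartpt at 3.44, Avp at 2.39, Oxt at 1.72 and Hcrt at 1.5. From Trh to Hcrt, each gene overlapped the next over the 6 libraries. The lowest Hcrt library, at 1.14, lay above the highest Pomc library, at 0.922. Pomc had a mean of 0.672, with Agrp at 0.275, Gh at 0.176 and Prl at 0 below it. Pmch stood at percentile 81.7 of all tested genes on this scale, and Pomc at percentile 19.5.

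The peptide genes varied more between libraries of 1 genotype than most genes did. The SD of log2 CPM within groups was at percentile 98.7 of all tested genes for Oxt, 98.0 for Cartpt, 96.8 for Pomc and 95.4 for Avp. Hcrt, Trh and Pmch were at percentiles 85.4, 82.4 and 70.6. The median of that SD over the 7 genes was 0.48, against 0.12 over all genes. Counting error, which is larger at low counts, was not set apart here.

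One library recurred as the lowest. WT library 2 had the lowest CPM for 5 of the 7 tested peptide genes (Oxt, Pmch, Pomc, Cartpt and Trh), while it was the lowest for 16% of all tested genes. WT library 3 was the highest for 6 of the 7, all but Cartpt, and for 16.3% of all tested genes. This was looked at after the values were seen. The median deviation of the 7 genes from their 6-library mean was -0.50 on the log2 scale in WT library 2 and 0.42 in WT library 3, and between -0.12 and 0.13 in the other 4. WT library 2 also had the fewest counts in genes, 31201119, and the part of depth in its low values was not tested.

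Transcription factors and receptors expressed in hypothalamic neurons were followed in the same way, as a list not limited to genes confined to the hypothalamus. Of 16 genes, 12 were tested, and 7 of these were lowest in WT library 2. They were Sim1 and Otp, which specify paraventricular neurons, Nkx2-1, Nr5a1 and Fezf1 of the ventral hypothalamus, Foxb1 of the mammillary region, and Gpr101. Otp was at 0.670 CPM in WT library 2 and between 1.33 and 2.14 CPM in the others. Nr5a1, which marks the ventromedial nucleus, had 0 counts there and between 6 and 14 in the others. In all, 5 of the 16 genes were at 0 in WT library 2, against 0 to 2 in any other library. The median deviation of the 12 genes was -0.31 in WT library 2 and 0.22 in WT library 3.

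Lists for other tissues and parts of the brain differed among themselves in WT library 2. The pituitary list had its lowest median deviation there, -0.60 over 3 tested genes, of which 2 were lowest in that library. Olfactory bulb markers were low in WT library 2 as well, with 4 of 5 lowest there (Eomes, Cdhr1, Th and Omp) and a median deviation of -0.51. In contrast, 0 of 6 striatal and 0 of 9 general brain markers were lowest in WT library 2, with median deviations of 0.11 and -0.0046. Of 6 cerebellar markers, 1 was lowest there, and of 7 choroid plexus markers 3 were, with a median deviation of -0.11. The part of dissection or tissue make-up in these differences was not tested.

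**Figure D3:**
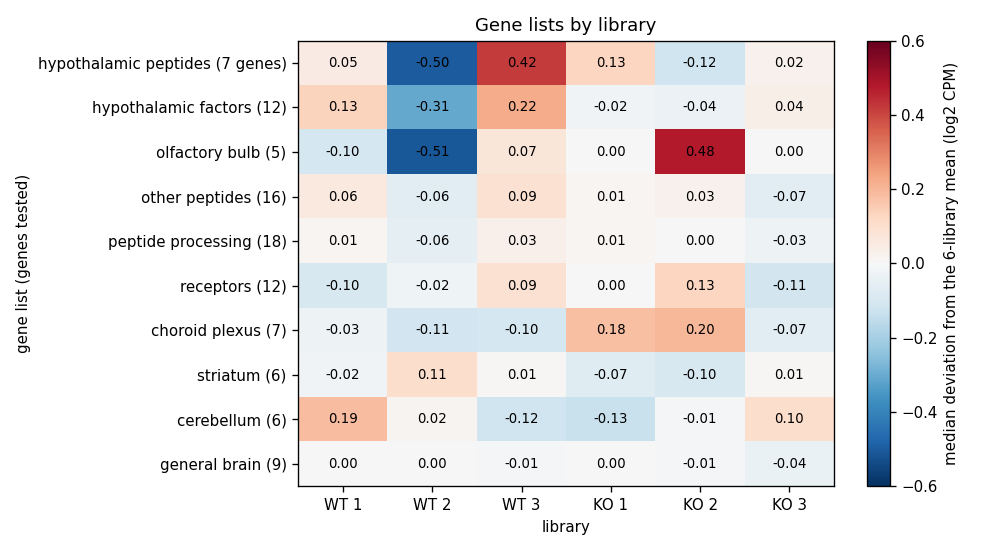
Median deviation of each gene list from its 6-library mean (log2 CPM, colour and printed value), with lists in rows, the number of genes tested in parentheses, and libraries in columns. WT library 2 is low for the hypothalamic peptides (-0.50), hypothalamic factors (-0.31) and olfactory bulb markers (-0.51), and near 0 for the general brain markers; the pituitary list, with 3 tested genes, is not drawn.

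The genotype comparison of the hypothalamic factors gave no call. None of the 12 tested reached an adjusted p-value below 0.05 with edgeR, 2 had an unadjusted one, and their median log2 fold change was -0.04. The most abundant per kb were Crhr1, Lhx1 and Gpr101. Crhr1, a receptor for corticotropin-releasing hormone, had the KO libraries above the WT libraries, at 0.19 on the log2 scale (SE 0.0820; edgeR adjusted p = 0.622). The leptin receptor gene Lepr had the KO libraries below the WT libraries, at -0.23 (SE 0.106; edgeR adjusted p = 0.628).

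Receptors for these peptides were followed as a list. Of 16 receptor genes, 12 were tested, 0 passed in edgeR in either direction and 0 had an unadjusted p-value under 0.05. Their median log2 fold change was 0.03, with a range from -0.20 to 0.17. Mchr1, the receptor for melanin-concentrating hormone, led the list at 5.32 ± 0.395 CPM per kb in WT and 5.22 ± 0.384 in KO (SD, n = 3). Trhr2 and Ghr followed. The oxytocin receptor gene Oxtr lay between 5.39 and 6.09 CPM in all 6 libraries, a 1.13-fold range at a mean of 198 counts, where Oxt itself ranged 3.57-fold at a mean of 31.5 counts. WT library 2 was lowest for 2 of the 12 receptors.

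Genes that process and store peptides were tested as a list of 18. With edgeR, 0 of the 18 reached an adjusted p-value below 0.05, 2 had an unadjusted one, and the median log2 fold change was -0.01. Cpe, the carboxypeptidase that trims the cut ends, was the most abundant, at 374 ± 14.9 CPM per kb in WT and 373 ± 10.8 in KO (SD, n = 3), followed by the granins Chgb and Scg2. Vgf, a granin-like precursor induced by activity, was at 58.0, 51.0 and 68.6 CPM in WT and 79.3, 89.5 and 73.7 CPM in KO. All KO libraries lay above all WT libraries, and its log2 fold change was 0.45 (SE 0.0982; edgeR adjusted p = 0.550). WT library 2 was lowest for 7 of the 18, Vgf among them. For Vgf the call depended on the method, as the DESeq2 Wald test gave Vgf an adjusted p-value of 0.00177. That test adjusted over 6195 genes, and edgeR over 21237. Trhde, the ectoenzyme that degrades thyrotropin-releasing hormone, was lower in each KO library than in any WT library, at -0.13 (SE 0.0475; edgeR adjusted p = 0.590).

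Further neuropeptides were counted, most of them made wholly or partly in the hypothalamus. Of 26 genes, 16 were tested, 0 passed in edgeR in either direction and 1, Penk, had an unadjusted p-value under 0.05. The median log2 fold change was -0.01. Penk, Sst and Npy, which are expressed widely in forebrain, were the most abundant per kb. Penk was at 91.7 ± 7.99 CPM per kb in WT and 79.8 ± 2.80 in KO (SD, n = 3), a difference of -0.20 in log2 units (SE 0.0616; edgeR adjusted p = 0.576). WT library 2 was lowest for 5 of the 16. Crh, the paraventricular releasing hormone of the stress axis, was at 0.478 CPM in WT library 2 and between 0.996 and 1.76 CPM elsewhere.

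The counts of 2 genes differed several-fold between the deposited columns. Exons 2 and 3 of Pmch lie wholly inside an exon of Parpbp, a DNA repair gene on the opposite strand (chromosome 10, exon from 88091432 to 88093186). On its own strand Pmch had 1892 counts over the 6 libraries. In the deposited column that ignores strand it had 373, or 19.7%, where the counting leaves out reads that lie in exons of both genes as ambiguous. Agrp showed the reverse. It had 58 counts on its own strand and 436 on the opposite strand, so that 88.3% of its stranded reads came from the other strand, and 480 in the column without strand. The long annotated span of Agrp crosses Ripor1, Gm38250 and the first bases of Ctcf on the plus strand. On its own strand it overlaps Gm5914, with a mean of 40.3 counts per library, and Gm45855, with 3.83. The part of these genes and of wrong-strand reads in the 58 counts was not tested. A level of Agrp taken without strand would be 8.28-fold that used here. For the remaining genes with counts, the unstranded sum was between 100% and 111% of the stranded one.

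**Figure D4:**
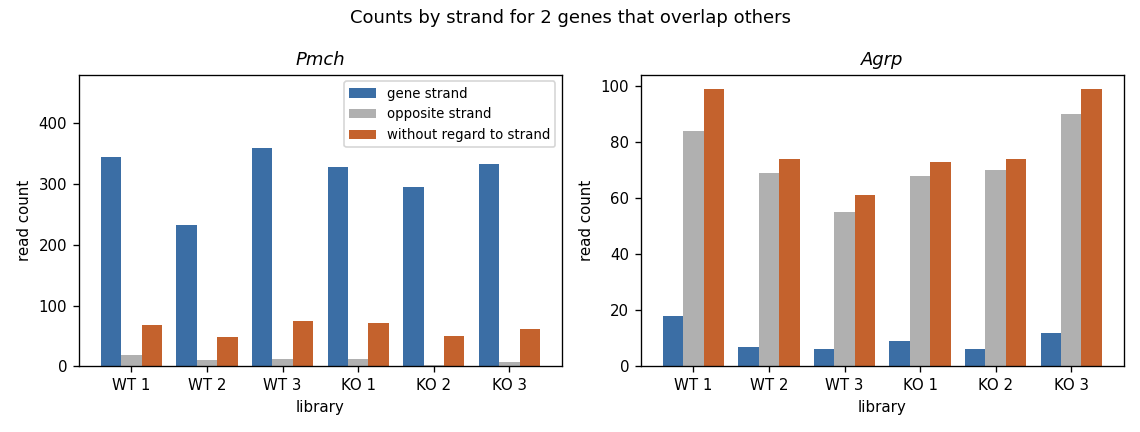
Read counts (vertical axis, linear from 0) of Pmch and Agrp in each library on the strand of the gene (blue), on the opposite strand (grey) and without regard to strand (orange). Pmch loses most of its reads when strand is ignored, while most of the unstranded reads of Agrp come from the opposite strand.

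Reads opposite to Pmch numbered 19, 11 and 12 in WT and 12, 2 and 7 in KO. Their log2 fold change was -1.05 (SE 0.438; edgeR unadjusted p = 0.0235, adjusted p = 0.798 over 10787 genes tested on that strand), which did not pass the threshold. For reads opposite to Agrp the log2 fold change was 0.07, with an SE of 0.177 and an edgeR adjusted p of 0.982.

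For each gene with counts, the genes with the closest pattern over the 6 libraries were sought as the smallest root mean square difference of log2 deviations. This describes 6 libraries and 1 search over many genes. For Cartpt the closest was Slc18a2, the vesicular monoamine transporter, with a difference of 0.15 where Cartpt itself varied by 0.50. Slc18a2 was at 12.8 and 12.7 CPM in WT library 1 and KO library 1, and between 6.03 and 8.67 CPM in the other 4. Pgr15l came next, at 0.23. For Avp the closest were Hoga1 (0.054) and Slc47a1 (0.16), and for Pomc they were Fam216b (0.17) and Wif1 (0.18).

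Oxt had no close match, as Asb4 and D930020B18Rik differed from it by 0.32 and 0.35, against its own variation of 0.58. For Trh the closest were Mir496a and Rbm38, for Hcrt Gm6598 and Gm20559, for Pmch Gm41414 and Gm23205, and for Agrp Gm17281 and 9330171B17Rik, all within 0.20. For Gh the nearest were Cbr2 and Sec14l3, at 0.89 and 0.93 against its own 1.52. Sec14l3 was at 6.38 CPM in WT library 3 and between 0.475 and 2.85 CPM in the others, and Cbr2 at 3.56 CPM against 0.478 to 1.41 CPM.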

How the data were processed

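For each library the authors deposited a table of raw read counts per gene, whole numbers with no normalization; cutadapt 1.9.1 and STAR 2.7.0f are named in the submitters' processing notes. Genome build and annotation are not given in the sources used here; the gene identifiers are exactly those of GENCODE M21 (GRCm38), which supplied names, positions and exon lengths. Per the labels' protocols, total RNA from brain was selected above 200 bp and sequenced with a TruSeq total RNA kit. Each table has 3 count columns: without strand, and on each strand. The column holding at least 80% of stranded counts was used (94.6% to 94.8% per library). The 4 summary rows (57.7% to 60.2% of reads) were left out.

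All 6 libraries were fitted with edgeR 4.0.16 (R 4.3.3): filterByExpr by group, TMM factors, genotype as factor, quasi-likelihood test, Benjamini-Hochberg adjustment over all genes tested. The SE is the log2 fold change divided by the square root of F, and 95% intervals use it with the test's degrees of freedom. Log2 CPM values carry a prior count of 2. The test was checked on simulated counts. Alternatives were unstranded counts, DESeq2 size factors, total counts, no filter, limma-voom (limma 3.58.1), a minimum mean count of 50, the Wald test of DESeq2 1.42.0, a replicate block and leaving out each library.

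The 10 genes and the lists were chosen with earlier results of these data known. Named by rule were the 10 genes, Trmt1l, list genes past the threshold, the 3 most abundant per kb of each list, the 2 closest patterns per gene (mean of at least 1 CPM) and genes overlapping the 10; others were named after their values were seen. Promoters came from RefSeq (GRCm38.p6).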

Additional observations from a re-analysis of the deposited data

How the results depend on the processing

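Over the alternatives that kept all libraries, 52 of 52 log2 fold changes of the 7 tested peptide genes kept their direction, and none that had an adjusted p-value passed the threshold. Without a filter on low counts, 1 of the 10 genes passed (Gh, from WT library 3 alone), with 3 other list genes (Penk, Vgf and Pcsk1n) and 298 genes in all. The DESeq2 Wald test called 1 list gene (Vgf) and 27 genes in all, and gave no adjusted p-value to any of the 10. It adjusted over 6195 genes, against 21237 in the main fit and 37245 without a filter, so these counts of calls are not on a like footing. Leaving out 1 library at a time, 0 of the 10 passed and from 2 to 5 genes passed in all. The log2 fold changes then ran from -0.95 to -0.09 for Oxt, from -0.067 to 0.42 for Avp, from -0.26 to 0.15 for Hcrt, from -0.15 to 0.12 for Pmch, from -0.22 to 0.42 for Pomc, from -0.35 to 0.48 for Cartpt and from -0.063 to 0.28 for Trh, so that the direction of each but Oxt turned in at least 1 such fit. WT libraries 2 and 3 set most of these ends. With the replicate block 4 genes passed, none of the 10 among them; deviations of same-numbered libraries correlated at 0.040, -0.034 and -0.057 across genes, and WT libraries 2 and 3 did not correlate best with their own number, so nothing shows that the numbers pair the animals. Counts of 6 to 61 per library for Oxt, Avp, Hcrt, Pomc and Agrp limit what can be seen, and the labels give no batch.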

Other observations

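A hindbrain peptide showed the widest spread among the other neuropeptides with counts in every library, and was named after its values were seen. Rln3 encodes relaxin-3, made mainly in the nucleus incertus. It had WT counts of 54, 3 and 18 and KO counts of 28, 30 and 15, in order. WT library 2, at 0.0957 CPM, was again the lowest, and the range over the 6 libraries was 15.5-fold. The WT mean of 0.709 ± 0.708 CPM and the KO mean of 0.704 ± 0.254 CPM (SD, n = 3) differed by far less than the spread. Of 5 olfactory bulb markers, Eomes, Cdhr1 and Th were highest in KO library 2, and Tbr1 and Omp in WT library 3. In KO library 2 Eomes was at 17.1 CPM against 5.2 to 9.15 CPM elsewhere and Cdhr1 at 44.5 CPM against 21.1 to 34.1 CPM. Cdhr1 was higher in each KO library than in any WT library, at 0.48 on the log2 scale (SE 0.142; edgeR adjusted p = 0.576). Of 7 choroid plexus markers, all had a log2 fold change above 0, with a median of 0.18, and 0 passed the threshold in edgeR. Ttr, the transthyretin gene, had a WT mean of 293 ± 27.3 CPM and a KO mean of 359 ± 34.0 CPM (SD, n = 3), with the KO libraries above the WT libraries (edgeR unadjusted p = 0.00254, adjusted p = 0.576).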
